A study of Rattus norvegicus with 7 samples.

Results

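Antioxidant genes under NRF2 were followed in rMSCs, mesenchymal stem cells from rat bone marrow, 4 h after the cells were seeded on 3 surfaces. The genes were taken by symbol and are Hmox1, Gclc, Gclm, Txnrd1, Srxn1, Slc7a11, Osgin1, Nqo1, Gsr and Aox1. All 10 had a row among the 17147 gene symbols of every library, and all 10 passed the filter on low values described below. The surfaces were ISB-P, a polyurethane copolymer of polycaprolactone with propoxylated isosorbide (3 libraries), PCL, the plain polycaprolactone film (3 libraries), and TCP, the uncoated culture plastic (1 library). The films were 16 mm in diameter and had been sterilized with ethylene oxide gas. The methods describe primary cells from a male Sprague–Dawley rat 6 weeks old, grown in alpha MEM with serum, so all libraries may share a single donor. The labels do not say whether replicates were separate cultures, and p-values then measure only the spread between these libraries, which may be technical. Values were used as deposited and read as FPKM, fragment counts scaled by transcript length and library size. The unit is not stated with the values and was inferred from them and from the processing notes, which name Cuffdiff. The sum over all genes was 539393 for TCP, between 542921 and 597954 on PCL and between 590628 and 660124 on ISB-P. How many reads lie behind a value is unknown, and precision is judged from the spread among replicates. Values of a film are given below in the order of replicates 1, 2 and 3.

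NRF2, encoded by Nfe2l2, is the transcription factor that sets the cell's defence against oxidants and electrophiles. In resting cells KEAP1 hands it to an ubiquitin ligase built on CUL3 and RBX1, and it is degraded. When reactive molecules modify KEAP1, NRF2 persists, pairs with small MAF proteins and binds antioxidant response elements near genes for glutathione and thioredoxin chemistry, heme breakdown and quinone reduction. BACH1 pairs with the same MAF proteins and represses some of these genes, Hmox1 above all. Several of them also answer to other factors, such as Slc7a11 to ATF4.

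All 8 mesenchymal markers on the list were present in every library. Col1a1 and Vim, a collagen chain and an intermediate filament of mesenchymal cells, were at 10406 and 5302 FPKM on TCP and at no less than 3868 and 3675 in any film library. Of the 8, Pdgfrb, a growth factor receptor, was 177 FPKM on TCP, 177, 167 and 154 FPKM on PCL and 110, 97.4 and 86.6 FPKM on ISB-P, without overlap between the films (log2 difference -0.76, adjusted p = 0.0510 in limma, 1.41e-04 with the block described below). Its part in the differences between the films was not tested. Some markers of blood cells were present too. On TCP Lyz2 was at 72.9, Cd14 at 31.7, Cd68 at 15.1, Csf1r at 5.70 and Itgam at 2.56 FPKM, all lower on the films, and Ptprc, the pan-leukocyte marker CD45, did not exceed 1.48 FPKM in any library. Cd34 and Cd163 were listed at 0 in every library, but so was the widely expressed Cbr1, and such a 0 may be a gene that was not quantified. Pecam1, Cdh5 and Kdr, which mark endothelium, stayed at or under 0.365 FPKM.

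Promoter sequences were read from RefSeq (GRCr8), a build other than that of the files, for the 8 members found there by symbol, in 9 windows from 250 bases before to 50 after a transcription start. Hmox1 and Gsr were not found. The core of the antioxidant response element, TGACNNNGC, and TGANTCA, the site of AP-1 with any base in its middle, were searched on both strands. The first was present in 2 of the 8 members and in 12.1% of all 33469 windows, and the second in another 2 and in 7.33%. The motifs can overlap, where the free bases of the element are TCA. The stretches below hold these matches, and are shown because they are the letters through which NRF2 or AP-1 could be sought beside each gene. The matched bases are in capitals, as read on the gene's strand. In Gclm and Txnrd1 the element lies on the opposite strand.
Gclm: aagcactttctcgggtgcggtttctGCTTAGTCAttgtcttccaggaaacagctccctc
Txnrd1: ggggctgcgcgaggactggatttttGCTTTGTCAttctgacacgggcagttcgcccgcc
Srxn1: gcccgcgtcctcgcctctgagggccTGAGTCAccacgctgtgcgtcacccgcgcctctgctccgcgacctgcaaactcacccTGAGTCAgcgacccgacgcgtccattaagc
Aox1: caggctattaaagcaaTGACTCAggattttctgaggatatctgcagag
The stretches lie at chr2:213031938-213031996 (plus strand) for Gclm, chr7:22755949-22756007 (minus) for Txnrd1, chr3:161064725-161064836 (plus) for Srxn1 and chr9:67073641-67073688 (plus) for Aox1. Txnrd1 has a pair of windows, and the match is in only one of them. With the base before the transcription start counted as -1, the matches began at -172 in Gclm, -78 in Txnrd1, -62 and -5 in Srxn1 and -234 in Aox1. The Srxn1 match at -5 is followed by GC, and differs from the core of the element only in the base after TGA. A match is a description of the letters, and the windows are too short to speak for elements farther away.

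Of the 10 genes, 9 were higher in every film library than on TCP, and more than 2-fold so on average on both films when 1 FPKM was added to each value. The exception was Aox1. Of the 9467 tested genes, those that reached 1 FPKM in 3 or more film libraries, 5.56% were more than 2-fold above TCP in the PCL mean and 8.98% in the ISB-P mean. The median log2 difference of the 10 genes from TCP was 2.59 on PCL and 2.89 on ISB-P, against 0.07 and 0.08 over all tested genes. Both films are set against the same TCP library, which has no replicate, so these differences have no test.

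**Figure D1:**
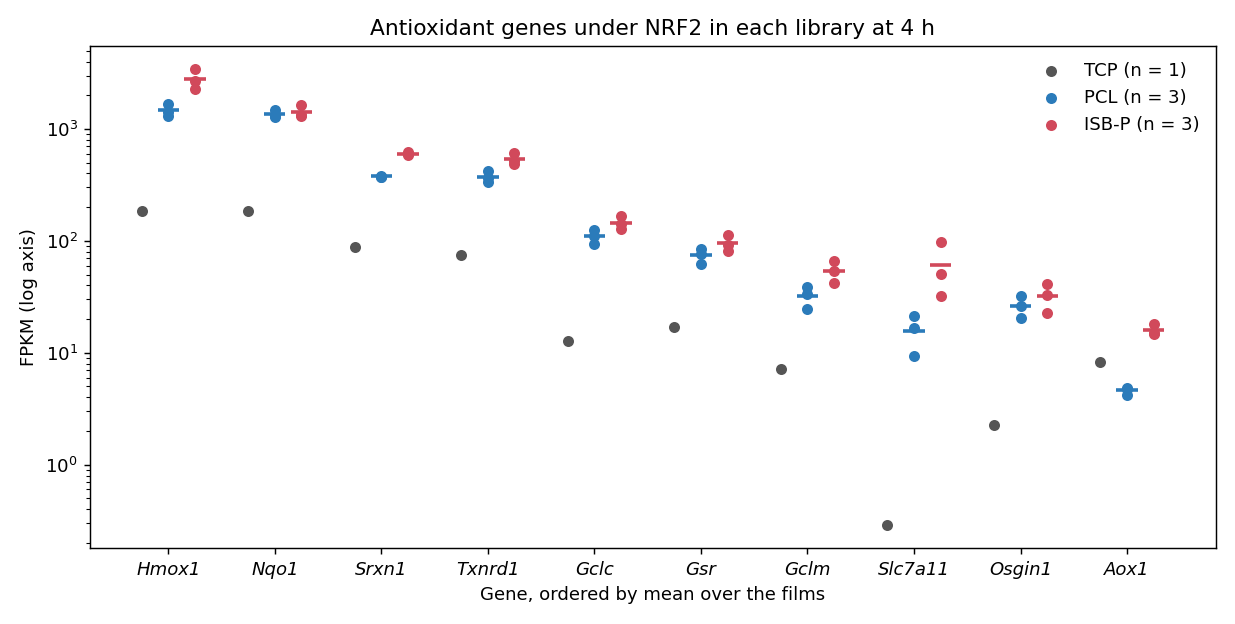
FPKM of the 10 antioxidant genes (log axis) in the TCP library and in the 3 PCL and 3 ISB-P libraries; points are libraries and bars are means. TCP lies below all film libraries for every gene other than Aox1, where it lies at 8.20 FPKM between the films.

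Glutathione synthesis begins with the import of cystine, and Slc7a11 encodes the cystine carrier of the xCT exchanger. It was 0.287 FPKM on TCP, 9.44, 16.8 and 21.1 FPKM on PCL and 32.2, 50.1 and 98.6 FPKM on ISB-P. The films did not overlap, and both stood far above the plastic: the PCL mean was 55.1 times and the ISB-P mean 210.3 times the TCP value, a ratio that rests on a very low TCP level. On the log2(FPKM + 1) scale only 1 of the tested genes stood farther above TCP on ISB-P, and 4 did on PCL. ISB-P was 3.41, 2.98 and 4.67 times PCL within replicate numbers 1, 2 and 3.
Glutamate-cysteine ligase makes the dipeptide from which glutathione is built, with Gclc as its catalytic and Gclm as its modifier subunit. Gclc was 12.8 FPKM on TCP, 93.4, 109 and 126 FPKM on PCL and 128, 141 and 166 FPKM on ISB-P. The lowest ISB-P library lay just above the highest PCL library. Gclm was 7.19 FPKM on TCP, 24.4, 33.2 and 38.8 FPKM on PCL and 41.7, 54.0 and 66.5 FPKM on ISB-P, again without overlap. In FPKM, which is a level per transcript length, the catalytic subunit was the more abundant in all 7 libraries.
Gsr, glutathione reductase, returns oxidized glutathione to its reduced form. It was 17.0 FPKM on TCP, 62.2, 76.7 and 85.0 FPKM on PCL and 80.7, 92.0 and 114 FPKM on ISB-P. Here the films overlapped, since PCL replicate 3 lay above ISB-P replicate 1.

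Thioredoxin reductase 1, encoded by Txnrd1, keeps cytosolic thioredoxin reduced. It was 74.6 FPKM on TCP, 337, 365 and 418 FPKM on PCL and 487, 521 and 609 FPKM on ISB-P. Srxn1, sulfiredoxin, repairs peroxiredoxins that were oxidized too far. It was 87.3 FPKM on TCP, 374, 379 and 376 FPKM on PCL and 617, 598 and 587 FPKM on ISB-P. Neither gene overlapped between the films, and Srxn1 had the narrowest spread of the members relative to its mean, with an SD of 2.16 FPKM on PCL and 15.4 FPKM on ISB-P (n = 3 each).

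Hmox1, heme oxygenase 1, opens the heme ring and releases iron, carbon monoxide and biliverdin. It was 186 FPKM on TCP, 1686, 1408 and 1313 FPKM on PCL and 3451, 2687 and 2289 FPKM on ISB-P. It was the most abundant of the members on ISB-P, where 30 of the tested genes had a higher mean over the films. Nqo1, which reduces quinones with both electrons together, was 183 FPKM on TCP, 1274, 1304 and 1468 FPKM on PCL and 1307, 1335 and 1633 FPKM on ISB-P. The films overlapped for Nqo1, in contrast to Hmox1. Together these genes made up from 63.8% to 76.7% of the members' summed FPKM, depending on the library. That sum was 579 FPKM on TCP, 3898, 3721 and 3871 FPKM on PCL and 6201, 5526 and 5603 FPKM on ISB-P.

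Osgin1, an oxidative stress induced growth inhibitor, was 2.25 FPKM on TCP, 32.5, 26.1 and 20.4 FPKM on PCL and 40.8, 32.8 and 22.6 FPKM on ISB-P. All film libraries were at least 9.06 times the TCP value, and the films overlapped. Aox1, aldehyde oxidase, a molybdenum enzyme that oxidizes aldehydes and nitrogen heterocycles, had another order of surfaces. It was 8.20 FPKM on TCP, 4.78, 4.18 and 4.89 FPKM on PCL and 15.0, 14.7 and 18.2 FPKM on ISB-P. All PCL libraries were below TCP and all ISB-P libraries above it, and the ratio of the mean to TCP was 0.563 on PCL and 1.95 on ISB-P.

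**Figure D2:**
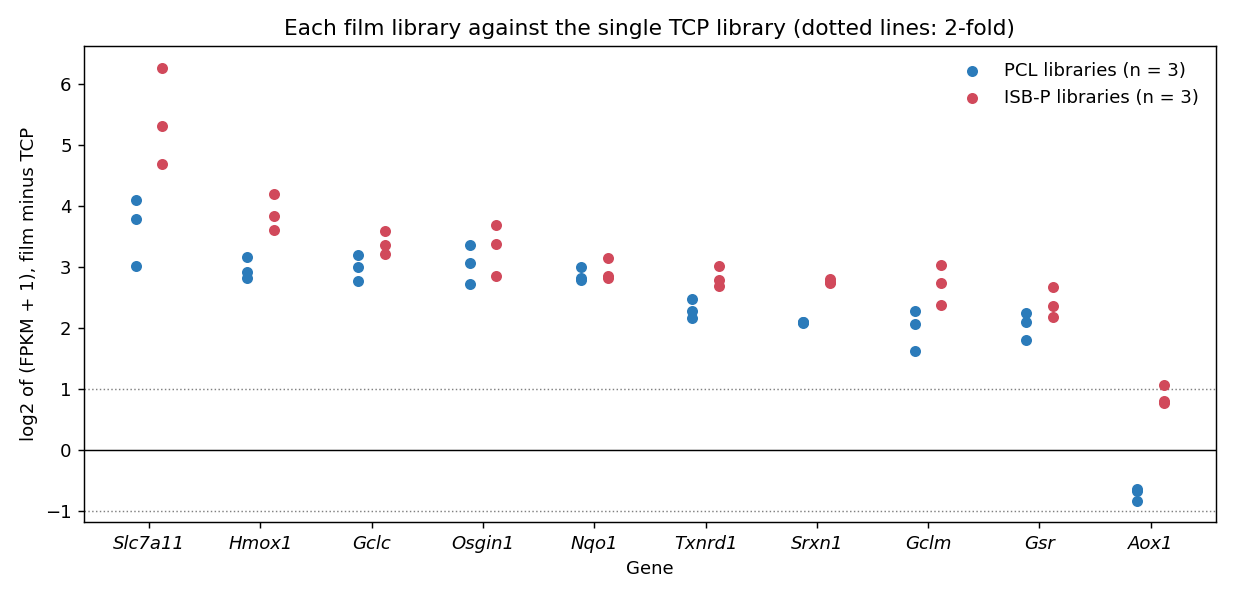
Difference of log2(FPKM + 1) between each film library and the single TCP library for the 10 genes; dotted lines mark 2-fold, and points are the 3 libraries of each film. Slc7a11 lies farthest above TCP, with a log2 difference of the ISB-P mean of 5.57, and Aox1 alone has libraries below 0.

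ISB-P and PCL were then compared directly, since the study asks what ISB-P changes relative to PCL. In the values as deposited every member had a higher mean on ISB-P, and all 10 were higher on ISB-P within each replicate number. The share of all tested genes that did so was not computed. The FPKM sum over all genes was also higher on ISB-P within each number, and the sign of Nqo1 depended on scaling, as given below. Without overlap between the films were 7 of the 10, against 8.17% of tested genes with every ISB-P library above every PCL library. By limma on log2(FPKM + 1), with p-values adjusted over the 9467 genes, Aox1 and Srxn1 rose, 2 of 10, where 1.10% of tested genes rose and 0.623% fell. These were 104 and 59 genes, and 70 rose and 70 fell after scaling to a common total. The median log2 difference was 0.60 over the 10 genes and 0.02 over all tested genes.
The mean of Aox1 was 4.61 ± 0.382 FPKM on PCL and 16.0 ± 1.96 FPKM on ISB-P (SD, n = 3 each), with a log2 difference of 1.59 (standard error 0.13, adjusted p = 0.00361 in limma). Without PCL replicate 2 its adjusted p was 0.0500418, and it was under 0.05 with any other library left out. Srxn1 was at 376 ± 2.16 FPKM and 601 ± 15.4 FPKM, with a log2 difference of 0.67 (standard error 0.10, adjusted p = 0.0287 in limma). It passed with ISB-P replicate 3 left out, at 0.0481, and missed the threshold with each of the other libraries left out, at 0.0888 to 0.201. Its adjusted p was 0.111 after upper quartile scaling, 0.157 after quantile normalization and 0.0821 at a common total.

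The replicate numbers of the labels were taken to pair the libraries, from correlations in these same values set out in the methods. The labels state no such pairing, and p-values with the block rest on it. With the number as a block 9 of the 10 genes rose, all but Nqo1. In that fit 13.0% of all tested genes rose and 11.4% fell. Slc7a11 had the largest log2 difference of the members at 1.79 (standard error 0.44, adjusted p = 0.136 in limma), and with the block the adjusted p was 3.07e-05. Aox1 had the larger difference without PCL replicate 1, at 1.61 against 1.48 for Slc7a11, and without ISB-P replicate 3, at 1.499 against 1.362. Hmox1 was 2809 ± 591 FPKM on ISB-P and 1469 ± 194 FPKM on PCL, with a log2 difference of 0.92 (standard error 0.18, adjusted p = 0.0651 in limma, or 4.47e-05 with the block). It passed without the block when ISB-P replicate 3 was left out, at 0.0424. Hmox1 on ISB-P was 2.05, 1.91 and 1.74 times PCL within replicates 1, 2 and 3.
For the genes of glutathione synthesis and recycling the log2 differences were smaller. Gclm differed by 0.73 (adjusted p = 0.244 in limma, 2.17e-04 with the block) and Gclc by 0.40 (0.389 and 0.00315). Gsr differed by 0.35 (0.562 and 0.00809). Txnrd1, of the thioredoxin branch, differed by 0.53 (0.162 and 5.52e-04), and its ratio within replicate numbers ran only from 1.43 to 1.46. Osgin1 differed by 0.26 (0.862 and 0.0381).
Nqo1 passed in neither fit. It was 1425 ± 181 FPKM on ISB-P and 1349 ± 105 FPKM on PCL, a log2 difference of 0.07 with a 95% interval from -0.23 to 0.38, and its sign turned under each of the 3 scalings and without ISB-P replicate 3. The two-sided exact permutation test over the 6 film libraries gave p = 0.1, the smallest that 3 against 3 allow, for the 7 genes without overlap.

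**Figure D3:**
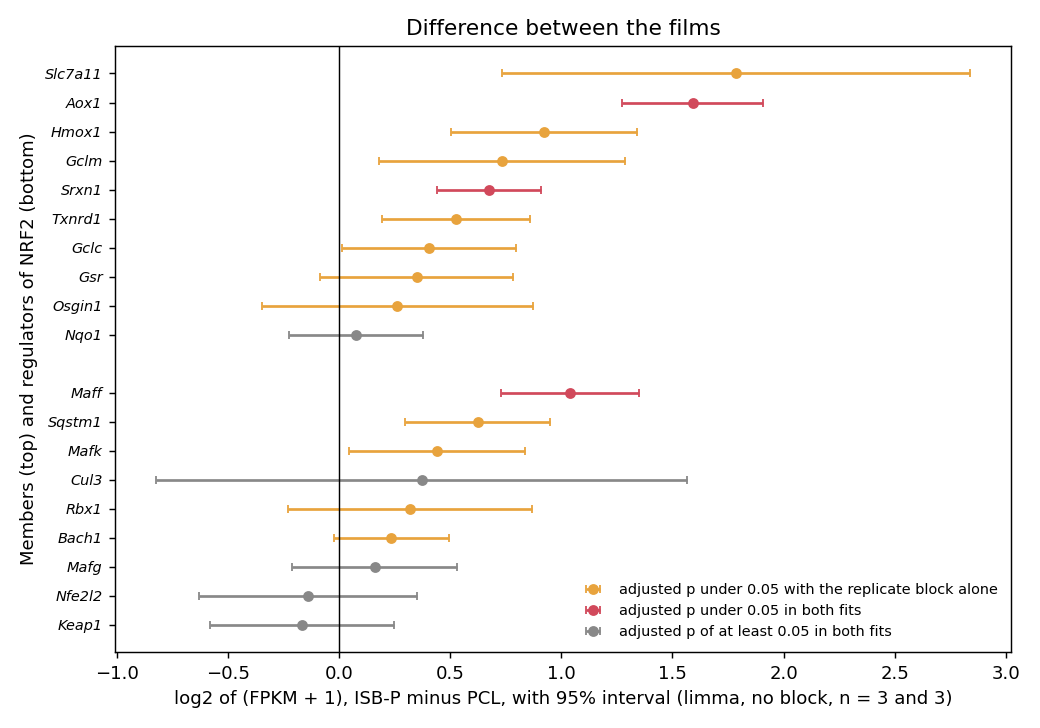
Difference of log2(FPKM + 1) between ISB-P and PCL with its 95% interval from limma without the block (3 libraries each), for the 10 genes above and 9 regulators of NRF2 below; colour shows which fits gave an adjusted p under 0.05. Slc7a11 and Aox1 lie farthest right at 1.79 and 1.59, and Nqo1 lies at 0.07.

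The replicate numbers moved the members in different directions. Of the 10 genes, 9 had the same order of replicates on PCL and on ISB-P, all but Srxn1, as had 62.1% of tested genes. On both films 7 were highest in replicate 3, among them Slc7a11, Gclm and Txnrd1, while Hmox1 and Osgin1 were highest in replicate 1. For Slc7a11 the spread between numbers on ISB-P, from 32.2 to 98.6 FPKM, was wider than the difference between the film means of 60.3 and 15.8 FPKM. For Osgin1 replicate 3 of ISB-P, at 22.6 FPKM, was below replicates 1 and 2 of PCL. What the replicate number stands for is not stated in the labels.

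**Figure D4:**
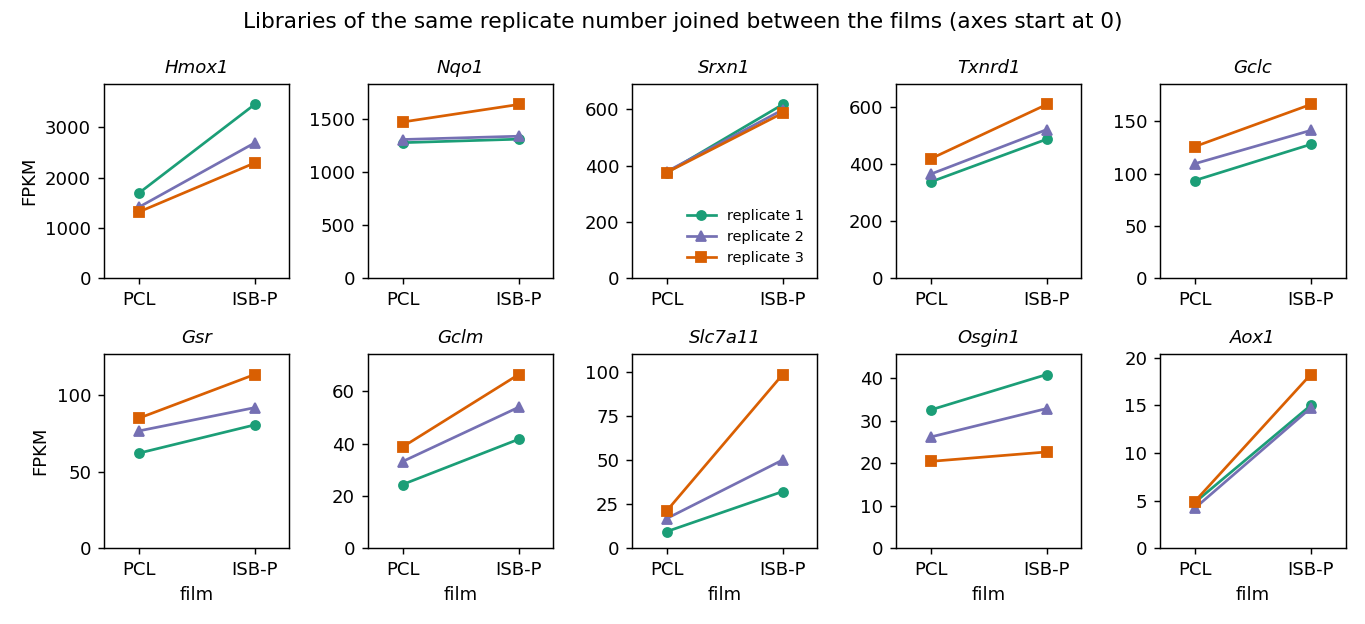
FPKM of each of the 10 genes on PCL and ISB-P, with libraries of the same replicate number joined (1 line per number, axes from 0). All lines rise from PCL to ISB-P; Hmox1 and Osgin1 are highest in replicate 1, Slc7a11 in replicate 3.

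The genes that control NRF2 were read beside its targets. Of the 10 written on a list of regulators, 9 had a row and all 9 were tested. Maff rose on ISB-P in limma without the block, where 1.10% of all tested genes rose. With the block 5 rose, where 13.0% of all tested genes rose. Nfe2l2, which encodes NRF2 itself, was 109 FPKM on TCP, 125 ± 20.7 FPKM (SD, n = 3) on PCL and 114 ± 27.3 FPKM on ISB-P. Its film libraries lay on both sides of TCP, and the log2 difference between the films was -0.14 (95% interval -0.63 to 0.35, adjusted p = 0.915 in limma, 0.175 with the block). Keap1, its inhibitor, was 15.4 FPKM on TCP, 17.6 ± 1.03 FPKM on PCL and 15.8 ± 3.36 FPKM on ISB-P (log2 difference between the films -0.17, adjusted p = 0.876, 0.233 with the block).
Of the ligase that degrades NRF2, Cul3 had a log2 difference of 0.37 (adjusted p = 0.909, 0.0674 with the block), with libraries from 35.7 to 152 FPKM on the films, and its sign turned without ISB-P replicate 3. Rbx1 had one of 0.32 (0.751, 0.0188). Bach1, the repressor, was 26.6 FPKM on TCP, 65.6, 64.4 and 67.4 FPKM on PCL and 77.7, 76.8 and 78.1 FPKM on ISB-P, above TCP on both films and without overlap between them. Its log2 difference between the films was 0.23 (adjusted p = 0.488, 0.0335 with the block).
The small MAF genes Maff, Mafg and Mafk encode the partners of NRF2 and BACH1. Maff was 5.41 FPKM on TCP, 7.41, 6.98 and 6.82 FPKM on PCL and 16.7, 16.7 and 13.5 FPKM on ISB-P (log2 difference 1.04, standard error 0.13, adjusted p = 0.0177 in limma). The call was lost under upper quartile scaling, at 0.0634, and with any library other than ISB-P replicate 3 left out, at 0.0540 to 0.157. Mafk differed by 0.44 (0.346, 0.00719 with the block) and Mafg by 0.16 (0.859, 0.148). Sqstm1, the p62 protein that draws KEAP1 into autophagy, was 228 FPKM on TCP, 374, 347 and 334 FPKM on PCL and 618, 550 and 467 FPKM on ISB-P, a log2 difference of 0.62 (adjusted p = 0.0970, 5.13e-04 with the block). Among the regulators the mean was more than 2-fold above TCP for 2 genes on PCL and for 5 on ISB-P. Of all tested genes, 5.56% on PCL and 8.98% on ISB-P were that far above TCP.

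Other genes of the pathway were read from lists written by hand for NADPH supply, heme and iron, partners of glutathione and thioredoxin, and detoxification and export. With the regulators these lists hold 44 genes, of which 42 had a row and 40 were tested. Between the films 3 rose (Maff, Ggt1 and Ptgr1) and 0 fell in limma, against 1.10% and 0.623% of all tested genes. In that fit 0 of the 40 were lower at an unadjusted p under 0.05. With the block 16 rose and 2 fell, where 13.0% of all tested genes rose and 11.4% fell. The median log2 difference of the 40 was 0.17, against 0.60 over the 10 members. Against TCP, 9 of the 40 were more than 2-fold higher on PCL and 14 on ISB-P, against 5.56% and 8.98% of all tested genes. Ephx1, an epoxide hydrolase, was the 1 gene more than 2-fold lower, at 33.8 FPKM on TCP and means of 8.86 FPKM on PCL and 8.49 FPKM on ISB-P.
Ggt1, the gamma-glutamyltransferase that breaks down glutathione outside the cell, was 3.46 FPKM on TCP, 14.5, 13.6 and 13.3 FPKM on PCL and 34.9, 34.3 and 29.5 FPKM on ISB-P. Its log2 difference between the films was 1.19 (standard error 0.13, adjusted p = 0.00863 in limma). Leaving out PCL replicate 1, 2 or 3 or ISB-P replicate 2 raised the adjusted p to 0.0517, 0.0990, 0.0618 and 0.10004. Ptgr1, a reductase of prostaglandins and reactive alkenals, was 124 FPKM on TCP, 314, 325 and 383 FPKM on PCL and 572, 611 and 785 FPKM on ISB-P. Its log2 difference was 0.94 (standard error 0.16, adjusted p = 0.0450 in limma), which no longer passed with any library left out, at 0.0601 to 0.235, nor without the filter or with at least 5 FPKM required, at 0.0566 and 0.0568.
Prdx1, a peroxiredoxin, was 535 FPKM on TCP, 904, 1372 and 1550 FPKM on PCL and 1558, 2369 and 3402 FPKM on ISB-P (log2 difference 0.90, adjusted p = 0.303, 1.48e-04 with the block). Txn1, thioredoxin itself, had a log2 difference of 0.42 (0.194, 0.00186). The ferritin chains Fth1 and Ftl1, which store the iron that heme oxygenase frees, differed by 0.27 (0.481, 0.0161) and 0.03 (0.970, 0.826). The pentose phosphate enzymes Tkt and Taldo1, which feed NADPH supply, differed by -0.14 (0.895, 0.188) and 0.17 (0.671, 0.0867). Gstp1, a glutathione transferase and one of the 2 genes that fell with the block, was 130 FPKM on TCP, 652 ± 53.7 FPKM on PCL and 561 ± 54.4 FPKM on ISB-P (log2 difference -0.22, adjusted p = 0.608, 0.0292 with the block).
Antioxidant enzymes not counted among the classic targets, such as catalase, superoxide dismutases and other peroxidases, served as a reference. In limma 0 of the 10 passed, and 0 of them had an unadjusted p under 0.05, as 1145 of all tested genes had. With the block 2 rose, a share near that of all tested genes. Prdx5 and Sod1, the most abundant of them, had log2 differences of -0.04 (adjusted p = 0.959) and 0.23 (0.603, 0.0310 with the block). On neither film was the mean of any of these genes more than 2-fold above TCP. This depends on which genes were listed, since the peroxiredoxins Prdx1 and Prdx6 were not among them. The log2 difference of Prdx1 from TCP was 1.25 on PCL and 2.19 on ISB-P. Prdx6 was 110 FPKM on TCP, from 261 to 277 FPKM on PCL and from 355 to 405 FPKM on ISB-P. Sod3, a superoxide dismutase, was more than 2-fold below TCP on ISB-P, with a log2 difference of -1.04. Its log2 difference on PCL was -0.90, and all film libraries were below TCP.

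**Figure D5:**
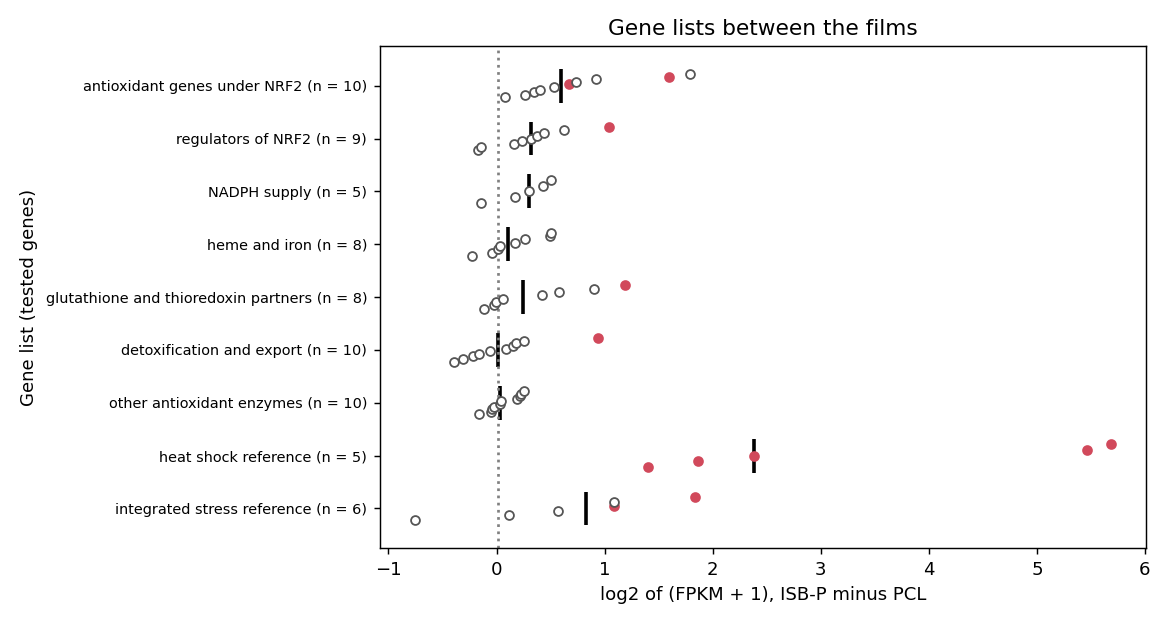
Difference of log2(FPKM + 1) between ISB-P and PCL for each tested gene, by list; filled points have an adjusted p under 0.05 in limma without the block, black bars are list medians and the dotted line is the median of all tested genes, 0.02. The members' median is 0.60, that of the other antioxidant enzymes 0.03 and that of the heat shock genes 2.38.

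Genes of other stress pathways were read beside them. All 5 heat shock genes on the list rose on ISB-P in limma, where 1.10% of all tested genes rose. The paper had already reported all 5 as higher on ISB-P than on PCL from these libraries. Their count is therefore a description and adds no support. The largest level was that of Hspa8, at 1021 FPKM on TCP, 1335 ± 144 FPKM on PCL and 3539 ± 553 FPKM on ISB-P. Its adjusted p in limma was 0.00831, but 0.0841 without PCL replicate 2 and 0.0727 without ISB-P replicate 2. The log2 differences of the others were 5.47 for Hspa1a, 5.69 for Hspa1b, 2.38 for Hsph1 and 1.86 for Dnajb1 (adjusted p = 0.00361, 8.79e-04, 0.00361 and 0.00150 in limma). Atf4, which also drives Slc7a11, was 220.5 FPKM on TCP, 277, 308 and 315 FPKM on PCL and 421, 431 and 483 FPKM on ISB-P (log2 difference 0.57, adjusted p = 0.0834, 5.23e-04 with the block). Their part in the members' values was not tested.
Aox2, a paralog of Aox1, was 0.221 FPKM on TCP, 0.540, 0.561 and 0.531 FPKM on PCL and 3.54, 3.40 and 3.71 FPKM on ISB-P. It stayed under 1 FPKM on PCL and so passed the filter only through ISB-P, and no test of it is given. The log2 difference was 1.56 with 1 FPKM added and 2.50 with 0.1 added, and the ratio of the means was 6.53. Aox3 and Aox4 did not exceed 0.0388 FPKM. The sources used here do not say how reads shared by paralogs were counted, and the levels of Aox1 and Aox2 are uncertain to that extent.

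Markers of macrophages moved with the surface. The 4 that had a row summed to 93.7 FPKM on TCP, 23.6, 28.6 and 27.9 FPKM on PCL and 27.0, 32.2 and 32.2 FPKM on ISB-P. The most abundant, Lyz2, was 72.9 FPKM on TCP and from 16.6 to 27.2 FPKM on the films, Csf1r was 5.70 FPKM on TCP and at most 2.33 FPKM on the films, Cd68 was 15.1 FPKM on TCP and at most 6.24 FPKM on the films, and Cd163 was listed at 0 throughout. Cd14 was 31.7 FPKM on TCP and from 10.9 to 16.6 FPKM on the films. Between the films Cd14 was lower on ISB-P, by a log2 difference of -0.42 (adjusted p = 0.175 in limma, 0.00663 with the block), and Lyz2 had one of 0.27 (0.637, 0.0299 with the block). These markers were lower on both films, where 9 of the 10 antioxidant genes were higher, and their part in the differences was not tested. In bulk RNA fewer cells of a type and less RNA per cell cannot be told apart.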

How the data were processed

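RNA-seq of rMSCs at 4 h was used for 7 libraries, with groups and replicate numbers from the sample titles. The authors deposited 1 table of gene symbols per library, read here as FPKM. The submitters' processing notes name bcl2fastq 2.20.0.422, cutadapt 1.18, TopHat2 2.0.13, Cuffdiff 2.2.1 and the genome build rn5, and the study's methods name TruSeq stranded mRNA libraries and ExDEGA. The annotation is not given in the sources used here. The values are not whole reads: in 21 pairs of libraries, at most 45.5% of the lowest values shared 1 step, so depth could not be recovered.

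Values were used as deposited. The 9467 genes that reached 1 FPKM in 3 or more film libraries were fitted on log2(FPKM + 1), which understates changes of low genes, with limma 3.58.1 in R 4.3.3 (lmFit, eBayes with a mean-variance trend), two-sided, with Benjamini-Hochberg adjustment over all tested genes and a threshold of 0.05. The study states a fold change over 2, a p under 0.1 and, for its heat map, values over 16, but no test. TCP was compared as a ratio without a test. Deviations from the film mean correlated across genes between same-numbered libraries of the films at r = 0.887, 0.431 and 0.867, so the numbers were taken to pair the libraries, and the fit with the number as a block is given beside the first.

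The members and the gene lists were chosen with earlier results of these data known, and the lists were written by hand from general knowledge. Named are all members, all regulators, and from each other list the 2 most abundant genes and those with an adjusted p under 0.05. Also named are some genes whose call the block changes and, chosen after their values were seen, Csf1r, Cd163, Cbr1, Ephx1, Sod3, Cd34, Ptprc, Pecam1, Cdh5, Kdr, Aox3 and Aox4. Nfe2l1, Pgd, Cd79a and Adgre1 of the lists were not analysed here. Promoters came from RefSeq GRCr8, matched by symbol. Alternatives were other scalings, filters, a pseudocount of 0.1, the block, TCP in the fit, an unadjusted p under 0.1 with a fold over 2 (the study's level threshold of 16 was not applied), a 1.5-fold limit and leaving out each film library. Python 3.11.15 and matplotlib 3.10.9 served for tables and plots.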

Additional observations from a re-analysis of the deposited data

Results flagged for a closer look

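Aox1 lay on opposite sides of the single TCP library on the films: TCP was at 8.20 FPKM, all 3 PCL libraries were below it and all 3 ISB-P libraries above. The same held for Hspa1a, at 91.1 FPKM on TCP, for its neighbour Hspa1b, at 17.1 FPKM, and for the stress factor genes Ddit3, at 27.8 FPKM, and Atf3, at 14.6 FPKM. Each film's difference from TCP was not tested, since TCP has 1 library. Genes picked in this way cannot overlap between the films, so the comparison of ISB-P with PCL adds no support.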

How the results depend on the processing

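The counts against TCP changed least among the alternatives run. Each of these used the same single TCP library, so the spread between TCP cultures was not examined. On each film 9 of the 10 genes were more than 2-fold above TCP under every scaling and the pseudocount of 0.1. The same held with any film library left out. At a limit of 1.5-fold 10 were higher on ISB-P and 1, Aox1, lower on PCL. The number of members that rose on ISB-P against PCL, 2 as reported, was 1 under upper quartile scaling, quantile normalization or scaling to a common total, 9 with the replicate block, and from 0 (without PCL replicate 2) to 3 with a library left out. Of the other listed genes, 16 rose and 2 fell with the replicate block, and from 0 to 2 rose with a library left out. Over all tested genes, 104 rose and 59 fell as reported. These were 69 and 39 under upper quartile scaling, 70 and 70 under scaling to a common total, 61 and 24 with at least 5 FPKM required, 1228 and 1079 with the replicate block, and from 14 to 82 and from 6 to 31 with a library left out, and 87 and 20 at an unadjusted p under 0.1 and a fold over 2. The log2 difference of Nqo1 was -0.00494 under upper quartile scaling, -0.0537 under quantile normalization and -0.0416 under scaling to a common total, and from -0.0273 to 0.137 with a library left out. That of Ftl1 was -0.0474, -0.129 and -0.0840 under these scalings. With a library left out it ran from -0.0998 to 0.186, that of Cul3 from -0.127 to 0.775 and that of Prdx5 from -0.101 to 0.0129. None of these sign changes passed the threshold. Scaling to a common total moved the median of all tested genes from 0.02 to -0.09. The other 9 members kept their sign under all alternatives run. The causes were not tested. Depth is unknown, so no limit is set on low values such as Slc7a11 on TCP.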

Other observations

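Over the 7 libraries, the genes whose log2(FPKM + 1) followed the mean standardized profile of the 10 members most closely, among 4793 candidates averaging 16 FPKM or more, were Prdx6 (Pearson r = 0.999), Nav3 (0.997), Akr1b10 (0.997), Abcc1 (0.996) and Igf2bp2 (0.993). Prdx6, a peroxiredoxin that is reduced by glutathione, was 110 FPKM on TCP, 261, 276 and 277 FPKM on PCL and 355, 365 and 405 FPKM on ISB-P. Akr1b10, an aldo-keto reductase, was 2.41 FPKM on TCP, 45.8, 64.3 and 60.6 FPKM on PCL and 111, 129 and 139 FPKM on ISB-P. Among the members themselves Aox1 followed the shared profile least, with r = 0.394, and Osgin1 came next with 0.913. Each member is part of that profile, which raises its r, so these values do not compare with those of the other genes. These correlations describe 7 libraries that share surfaces and replicate numbers.

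Of the 6 genes listed for the integrated stress response, 2 rose and 0 fell in limma, against 1.10% and 0.623% of all tested genes. In that fit Chac1 alone was lower at an unadjusted p under 0.05. With the block 4 rose and 1 fell, where 13.0% of all tested genes rose and 11.4% fell. Ddit3, which encodes the factor CHOP, was 27.8 FPKM on TCP, 16.9, 12.6 and 15.0 FPKM on PCL and 69.7, 47.4 and 51.2 FPKM on ISB-P (log2 difference between the films 1.84, standard error 0.19, adjusted p = 0.00805 in limma, or 0.0735 without PCL replicate 2). Atf3 also rose, by 1.09 (adjusted p = 0.0159), and lost the call without PCL replicate 1, 2 or 3 or ISB-P replicate 2, at 0.0648 to 0.140. Chac1, an enzyme that degrades glutathione and a target of ATF4, was 6.13, 5.74 and 5.18 FPKM on PCL and 3.60, 3.34 and 2.08 FPKM on ISB-P (log2 difference -0.76, adjusted p = 0.112, 0.00153 with the block). Trib3, a pseudokinase, was 4.803, 2.69 and 2.24 FPKM on PCL and 10.4, 8.01 and 5.55 FPKM on ISB-P (log2 difference 1.09, adjusted p = 0.147, 1.48e-04 with the block). Asns, asparagine synthetase, had a log2 difference of 0.12 (0.931, 0.331 with the block).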
